A study of Mus musculus with 6 samples.

Results

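The enzymes that write and remove methyl groups on cytosine in DNA, together with the methyltransferase complex that marks histone H3 at lysine 27, were followed in the developing mouse gastrocnemius. The group was chosen by gene symbol and comprised 10 genes (Dnmt1, Dnmt3a, Dnmt3b, Uhrf1, Tet1, Tet2, Tet3, Ezh1, Ezh2 and Suz12) of the 23367 entries in the deposited expression table. All 10 were detected in every library and passed the filter on low counts, which left 16882 genes to be tested. Polyadenylated RNA from the gastrocnemius, a fast muscle of the calf, was sequenced from wild type FVB mice with no treatment at E18.5, PN2, PN14, PN28 and 22 weeks (adult). Each stage had 1 library except PN14, which had replicates 1 and 2, each from 1 mouse. Every library had its own sequencing lane, so lane and stage cannot be told apart. The E18.5 library was made from pooled mice of both sexes and the PN2 library from pooled males, whereas the PN28 and adult libraries came from 1 male each. None of the 10 genes lies on a sex chromosome, and the differing sex of the E18.5 pool cannot be told apart from its stage.

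Dnmt1 is the maintenance methyltransferase that copies methylation onto the new DNA strand after replication, and Uhrf1 is the partner that recognises hemimethylated DNA and recruits it. Dnmt3a and Dnmt3b place methylation on unmethylated DNA. The TET dioxygenases Tet1, Tet2 and Tet3 oxidise 5-methylcytosine, which leads to its loss. In Polycomb repressive complex 2 (PRC2), Ezh2 or its paralog Ezh1 is the catalytic subunit and Suz12 is a core subunit needed for activity. Ezh2 is generally associated with dividing cells and Ezh1 with cells that have left the cell cycle, and muscle fibres are postmitotic.

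The promoters of these genes were searched for a family of words, shown here because all 3 members that fell between PN2 and PN14 held one. RefSeq promoter windows of 300 bases around a start (GRCm38.p6) were searched on both strands for TTTGGCGC, TTTCGCGC, TTTGCCGC and TTTCCCGC, the words commonly used for E2F factors, which drive genes of DNA replication. All 10 members had at least 1 window, and 4 of them (40%) held a word. Of the 12309 genes tested that had a window, 509 (4.14%) held one. The 30 bases around a word are shown for each of those 4 members, 5′ to 3′ on the strand of the gene, with the word or its reverse complement in capitals.
Dnmt1, chr9:20952824-20952853, minus strand: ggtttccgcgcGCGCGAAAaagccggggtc
Uhrf1, chr17:56304117-56304146, plus strand: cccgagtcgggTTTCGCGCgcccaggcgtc
Ezh2, chr6:47595009-47595038, minus strand: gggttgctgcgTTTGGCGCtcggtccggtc
Suz12, chr11:79992876-79992905, plus strand: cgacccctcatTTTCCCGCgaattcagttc

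The word began 219 bases before the start in Dnmt1 and Suz12 and 185 bases before it in Uhrf1, while in Ezh2 it began at base 4 after the start. Dnmt1 and Uhrf1 have more than 1 listed start, and their words also lie 137 and 791 bases after another start of the same gene. The same Dnmt1 window held a second word at base 34 after the start. Among 13 genes of proliferating cells with a window, 5 (38.5%) held a word. Pcna, Mcm2 and Mki67 were among those without one. Of 8 other PRC2 genes with a window, 1 (12.5%) held one, and of 14 genes of Polycomb repressive complex 1 it was 0. The 6 members without a word were Dnmt3a, Dnmt3b, Tet1, Tet2, Tet3 and Ezh1. The members had between 17 and 57 CpG dinucleotides in the richest window of each gene. The median over the genes tested was 20, and 9 of the 10 members were above it, Tet1 being below. A match of these letters is a description of the sequence and does not show that a factor binds there.

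Levels are given as FPKM, the fragments per kilobase of gene model scaled to library size, which allows genes to be compared within a library. Changes between stages are log2 fold changes of the counts after TMM normalization, a scaling that centres most genes on no change, and were tested with the quasi-likelihood method of edgeR, with Benjamini-Hochberg adjustment over the 16882 genes. Calls required both an adjusted p under 0.05 and a change of 1 or more, up or down, on the log2 scale. Only the PN14 pair is replicated, so its spread stands in for that of all stages, and each p rests on 1 residual degree of freedom with information shared across genes. Each library had between 125402932 and 157868359 counts on genes. The choice of scaling matters for these genes. With library size alone the median of all genes tested shifted by -0.66 from PN2 to PN14 and by -1.08 from E18.5 to adult, and FPKM values carry this shift. In whole muscle, fewer cells of a type cannot be told apart from less RNA per cell.

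At E18.5 the maintenance pair was the most abundant of the group, with 24.67 FPKM for Uhrf1 and 23.68 FPKM for Dnmt1. In the adult library Uhrf1 and Ezh1 had moved to opposite ends of the order. Ezh1 was the most abundant at 11.87 FPKM, followed by Dnmt3a at 7.35 FPKM and Suz12 at 5.72 FPKM, and Uhrf1 was the least abundant at 0.10 FPKM. Dnmt3a was first in both PN14 libraries, and in each of these Dnmt3b was last.

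**Figure D1:**
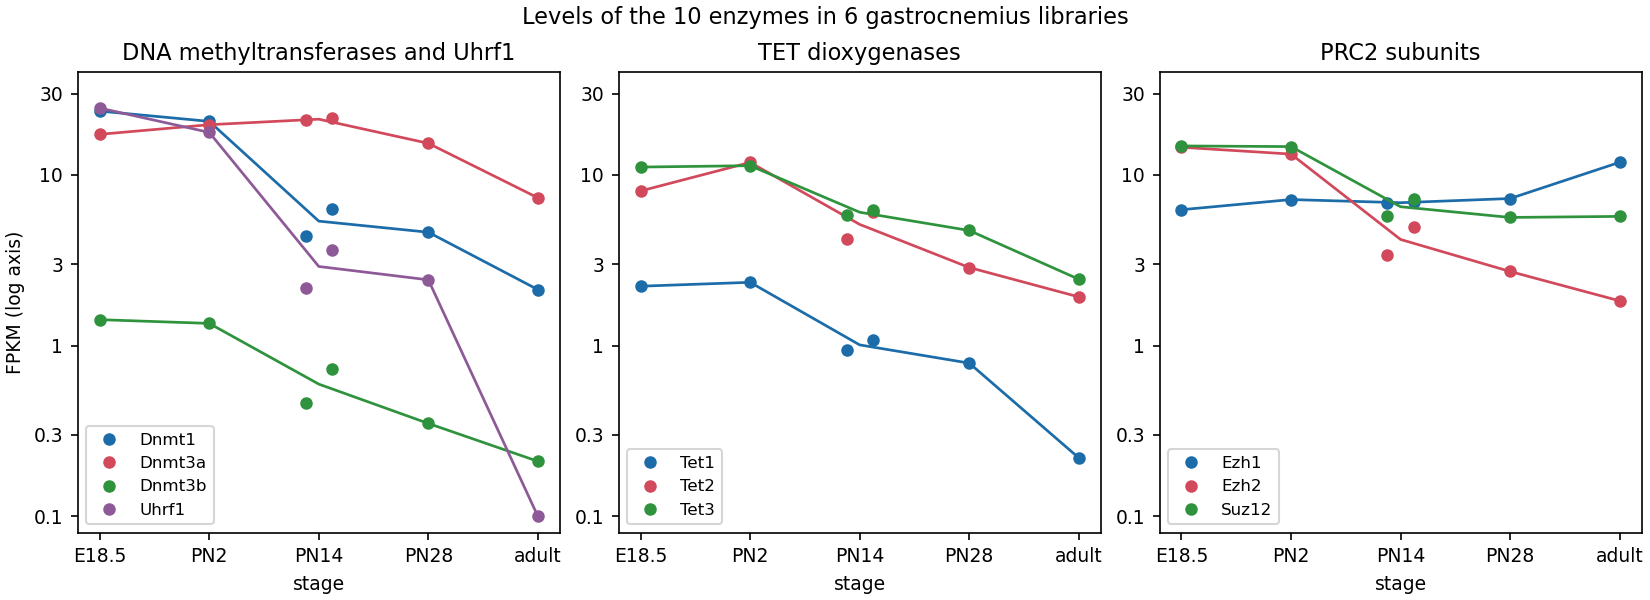
FPKM (log axis) of the 10 genes by stage, with 1 point per library and lines through the stages, which pass through the mean of the 2 libraries at PN14. Ezh1 is the only gene of the group that is higher in the adult library (11.87 FPKM) than at E18.5 (6.26 FPKM), and Uhrf1 has the steepest decline, to 0.10 FPKM.

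In the adult compared with E18.5, 8 members were called. Uhrf1, Dnmt1, Tet1, Ezh2, Dnmt3b, Tet3 and Tet2 fell, and Ezh1 rose, while Dnmt3a and Suz12 did not pass the test. Over all genes tested, 23.6% fell and 21.4% rose in this comparison. The median log2 fold change of the 10 members was -1.43, against -0.054 for all genes tested. The members were chosen with earlier results of these data known, so this comparison is descriptive only. With PN2 in place of E18.5 the count was again 8, of which 7 fell and 1 rose. Of all 16882 genes, 3533 fell and 3226 rose from PN2 to adult. Between E18.5 and adult with library size alone, 9 members fell and 0 rose, while 7700 of the 16882 genes fell. Under that scaling Ezh1 was still higher in the adult (log2 fold change 0.92), below the threshold for a call.

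Between adjacent stages, members were called only from PN2 to PN14 and from PN28 to adult. From E18.5 to PN2 none of the 10 genes was called, and over all genes 0.0296% were. At an unadjusted p under 0.05, 1 member (Tet2) passed in this interval, and DESeq2 and edgeR's exact test also called 0. The changes were 0.56 for Tet2, -0.46 for Uhrf1 and between -0.20 (Dnmt1) and 0.20 (Dnmt3a and Ezh1) for the others. From PN2 to PN14, 3 of the 10 fell (Uhrf1, Dnmt1 and Ezh2) and 0 rose, against 11.2% falling and 11.8% rising over all genes, and 8 of the 10 had an unadjusted p under 0.05, as did 7730 of the 16882 genes. The members not called had log2 fold changes from -0.57 (Tet2), -0.56 (Tet1), -0.54 (Dnmt3b) and -0.25 (Tet3) to 0.75 (Dnmt3a). The 3 that fell are among the 4 members with an E2F word, the other being Suz12. Dnmt3b, Tet1, Tet2 and Tet3, called as falling between E18.5 and adult, held none. A link between the word and the changes was not tested. The words were shown because of this overlap, so the overlap cannot serve as support for a link. From PN14 to PN28 again none was called (0.0178% of all genes), with 1 member (Tet2) at an unadjusted p under 0.05 and 0 called by DESeq2 or edgeR's exact test. The changes ran from -0.59 (Tet2), -0.54 (Dnmt3b) and -0.38 (Ezh2) to 0.31 (Ezh1), with -0.23 for Dnmt3a and -0.13 for both Tet1 and Tet3. Uhrf1, Dnmt1 (0.04) and Suz12 (0.03) were close to 0, and the values of Dnmt1 and Suz12 were -0.21 with library size alone. From PN28 to adult, 2 of the 10 fell (Uhrf1 and Tet1) and 0 rose, against 0.361% falling and 0.16% rising over all genes. The share over all genes depended on the test. In the main test 61 of the 16882 genes fell. With DESeq2's Wald test 645 fell and with edgeR's exact test 867, and both called the same 2 members. In this interval 6 of the 10 had an unadjusted p under 0.05, as did 3091 of all genes. Tet3 (-0.81), Dnmt3b (-0.55), Ezh2 and Tet2 (-0.44 each) and Suz12 (0.16) were not called.

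**Figure D2:**
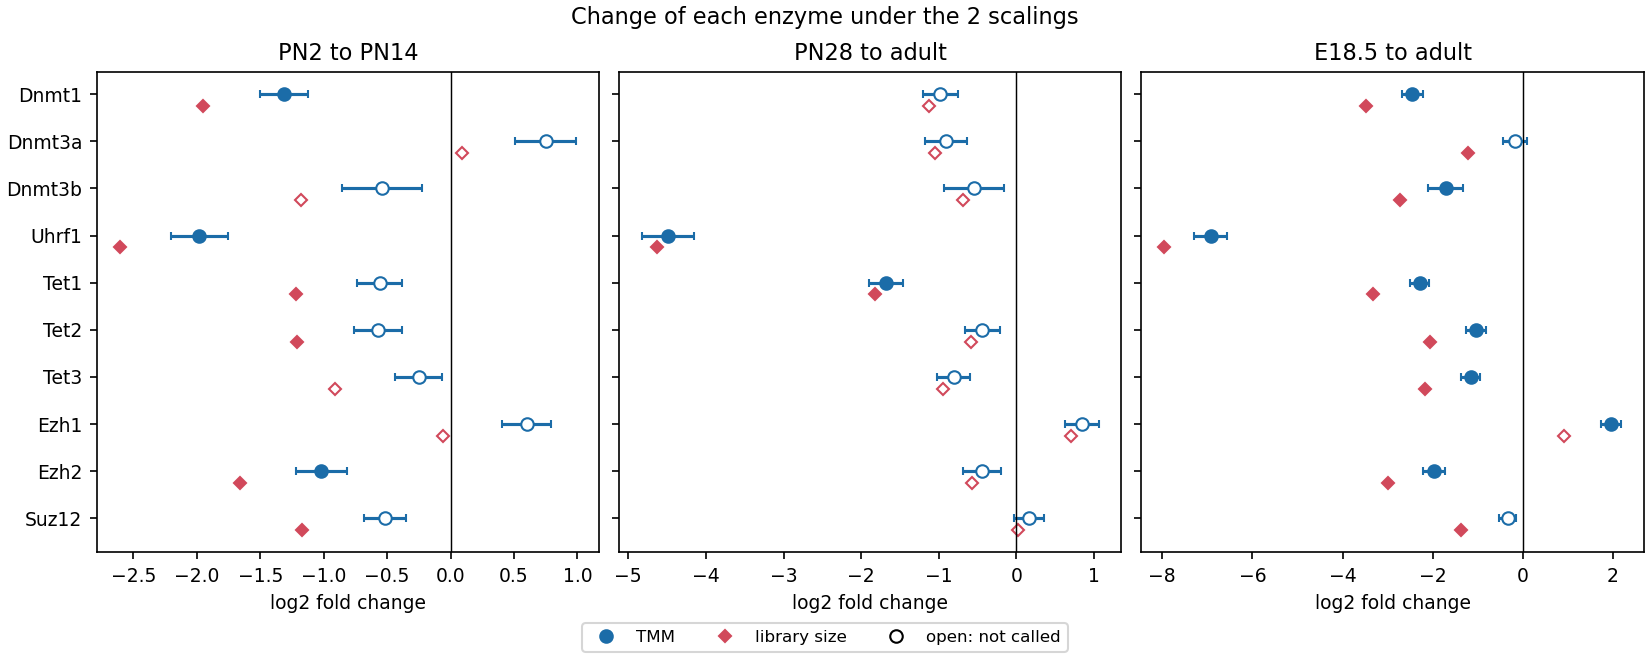
Log2 fold change of each gene in 3 comparisons, with TMM normalization (circles, bars give 1 standard error) and with library size alone (diamonds, no error drawn). Filled symbols are called and open ones are not. From PN2 to PN14, 3 genes are filled under TMM and 6 under library size, and Ezh1 lies at 0.60 under TMM and -0.06 under library size. Of all 16882 genes tested, 3884 are called in this interval under TMM and 5825 under library size.

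Uhrf1 (chromosome 17 of mm9, 56442744 to 56462909) showed the largest decline of the group. It had 24.67 FPKM (E18.5), 17.77 (PN2), 2.19 and 3.63 (PN14 replicates 1 and 2), 2.43 (PN28) and 0.10 (adult). The PN14 libraries and PN28 therefore formed a plateau far below the perinatal libraries, and the adult library lay far below that plateau. From PN2 to PN14 the log2 fold change was -1.98 (standard error 0.222, adjusted p = 0.00545). From PN28 to adult it was -4.49 (standard error 0.335, adjusted p = 0.0197), and from E18.5 to adult -6.93 (standard error 0.362, adjusted p = 0.00103). The adult level rested on 49 counts, with an exact 95% Poisson interval from 36.3 to 64.8 that covers counting error only, compared with 13510 counts at E18.5.

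Dnmt1 (chromosome 9, 20711650 to 20757317) declined in the same order of stages but less far. Its levels were 23.68 FPKM (E18.5), 20.62 (PN2), 4.39 and 6.34 (PN14 replicates 1 and 2), 4.62 (PN28) and 2.13 (adult). The PN28 library lay between the PN14 libraries. Dnmt1 fell from PN2 to PN14 with a log2 fold change of -1.31 (adjusted p = 0.00816, standard error 0.189). From PN28 to adult the change of -0.98 did not pass (standard error 0.229, adjusted p = 0.113). Because Uhrf1 declined further, the ratio of Uhrf1 to Dnmt1 in FPKM went from 1.04 at E18.5 and 0.862 at PN2 to between 0.499 and 0.573 at PN14 and PN28, and to 0.0469 in the adult.

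The de novo methyltransferases took separate courses. Dnmt3a (chromosome 12, 3806007 to 3914443) had 17.31 FPKM (E18.5), 19.71 (PN2), 20.97 and 21.50 (PN14 replicates 1 and 2), 15.33 (PN28) and 7.35 (adult). Its highest levels were thus in the PN14 libraries and its lowest in the adult. None of its changes was called with TMM. The log2 fold change was 0.75 from PN2 to PN14 (standard error 0.242, adjusted p = 0.0615), -0.91 from PN28 to adult (standard error 0.273, adjusted p = 0.18) and -0.18 from E18.5 to adult (standard error 0.271, adjusted p = 0.593). With library size alone the last value was -1.21 and was called.

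Dnmt3b (chromosome 2, 153475186 to 153513466) was scarce throughout, at 1.42 FPKM (E18.5), 1.35 (PN2), 0.46 and 0.73 (PN14 replicates 1 and 2), 0.35 (PN28) and 0.21 (adult). It fell between E18.5 and adult (log2 fold change -1.71, standard error 0.388, adjusted p = 0.0133) and was not called in any single interval. It had the largest standard errors of the group, on 904 counts at E18.5 and 123 in the adult. Dnmt3l, the catalytically inactive cofactor of the de novo enzymes, had at most 0.04 FPKM in any library and was not tested.

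Shares within a library do not depend on the scaling between libraries. Dnmt3a made up 40.8% of the summed FPKM of the 3 DNA methyltransferases at E18.5 and 47.3% at PN2, whereas in the later libraries it made up between 75.3% and 81.2%. The share of Dnmt1 went from 55.8% at E18.5 to between 17.0% and 22.8% from PN14 onward. Dnmt3b contributed at most 3.35%. The sum itself was 42.4 FPKM (E18.5), 41.7 (PN2), 25.8 and 28.6 (PN14 replicates 1 and 2), 20.3 (PN28) and 9.69 (adult). Dnmt3a exceeded Dnmt1 by 3.32 to 4.78 times in each library from PN14 onward and was below it in both perinatal libraries.

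The TET genes were all lower in the adult than at E18.5. Tet1 (chromosome 10, 62267318 to 62361866) had 2.23 FPKM (E18.5), 2.35 (PN2), 0.94 and 1.08 (PN14 replicates 1 and 2), 0.79 (PN28) and 0.22 (adult). Its adult level was the lowest by a wide margin. It fell from PN28 to adult with a log2 fold change of -1.68 (adjusted p = 0.0499, standard error 0.213), close to the threshold, and when genes averaging under 1 CPM were left out the adjusted p was 0.0771. From E18.5 to adult the change was -2.29 (standard error 0.217, adjusted p = 0.00133).

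Tet2 (chromosome 3, 133126643 to 133207354) was highest in the PN2 library. It had 8.06 FPKM (E18.5), 11.85 (PN2), 4.22 and 6.05 (PN14 replicates 1 and 2), 2.87 (PN28) and 1.93 (adult). Its log2 fold change from E18.5 to PN2 was 0.56 (standard error 0.224, adjusted p = 0.742) and did not pass, while from E18.5 to adult it fell by 1.04 on the log2 scale (standard error 0.226, adjusted p = 0.0115). From PN2 to adult the change was -1.59 (standard error 0.229, adjusted p = 0.00394).

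Tet3 (chromosome 6, 83312367 to 83391672) had 11.13 FPKM (E18.5), 11.34 (PN2), 5.86 and 6.24 (PN14 replicates 1 and 2), 4.73 (PN28) and 2.45 (adult). The perinatal libraries stood together, as did the PN14 libraries, and the adult was lowest. Tet3 fell between E18.5 and adult (log2 fold change -1.16, standard error 0.219, adjusted p = 0.00718) and was called in no single interval. Within the family the shares were similar from library to library. Tet3 took between 44.4% and 56.4% of the summed TET FPKM in each library, Tet2 between 34.2% and 46.4%, and Tet1 between 8.08% and 10.4% in all libraries but the adult, where it took 4.78%. The summed TET FPKM relative to the summed methyltransferase FPKM ranged from 0.413 at PN28 to 0.613 at PN2.

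The catalytic subunits of PRC2 moved in opposite directions. Ezh2 (chromosome 6, 47480273 to 47545340) had 14.54 FPKM (E18.5), 13.26 (PN2), 3.39 and 4.99 (PN14 replicates 1 and 2), 2.72 (PN28) and 1.83 (adult). Both perinatal libraries lay well above the others. Ezh2 fell from PN2 to PN14 with a log2 fold change of -1.02 (adjusted p = 0.0164, standard error 0.2), just past the 2-fold limit (-0.88, short of it, without PN14 replicate 1), and from E18.5 to adult with -1.97 (standard error 0.248, adjusted p = 0.00224).

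Ezh1 (chromosome 11, 101052429 to 101087777) had 6.26 FPKM (E18.5), 7.18 (PN2), 6.86 and 6.90 (PN14 replicates 1 and 2), 7.28 (PN28) and 11.87 (adult). In FPKM the adult library stood above the other 5, which lay within a narrow range. On the TMM scale Ezh1 rose between E18.5 and adult (log2 fold change 1.95, standard error 0.226, adjusted p = 0.0019) and was not called in a single interval. Its changes were 0.60 from PN2 to PN14 (standard error 0.194, adjusted p = 0.0613) and 0.84 from PN28 to adult (standard error 0.219, adjusted p = 0.139). The value from PN2 to PN14 changed sign with library size alone, to -0.06.

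The Ezh2 to Ezh1 ratio, which is free of the scaling between libraries, was lower at each later stage. In FPKM it was 2.32 (E18.5), 1.85 (PN2), 0.494 and 0.723 (PN14 replicates 1 and 2), 0.374 (PN28) and 0.154 (adult). Ezh2 was thus the more abundant transcript in both perinatal libraries and Ezh1 in each of the 4 later ones. From E18.5 to adult the log2 ratio changed by -3.91, a 15.1-fold decrease, and from PN2 to PN14 by -1.63, a 3.09-fold decrease. The PN14 replicates differed from each other by 0.55 on this scale, or 1.46-fold. The change of -0.68 from PN14 to PN28 was not far above that difference, and the change of -0.33 from E18.5 to PN2 was smaller than it. The ratio was not tested, and its only measure of spread is that pair. Taken from counts without correction for length, the ratio was 1.46 at E18.5 and 0.0965 in the adult.

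**Figure D3:**
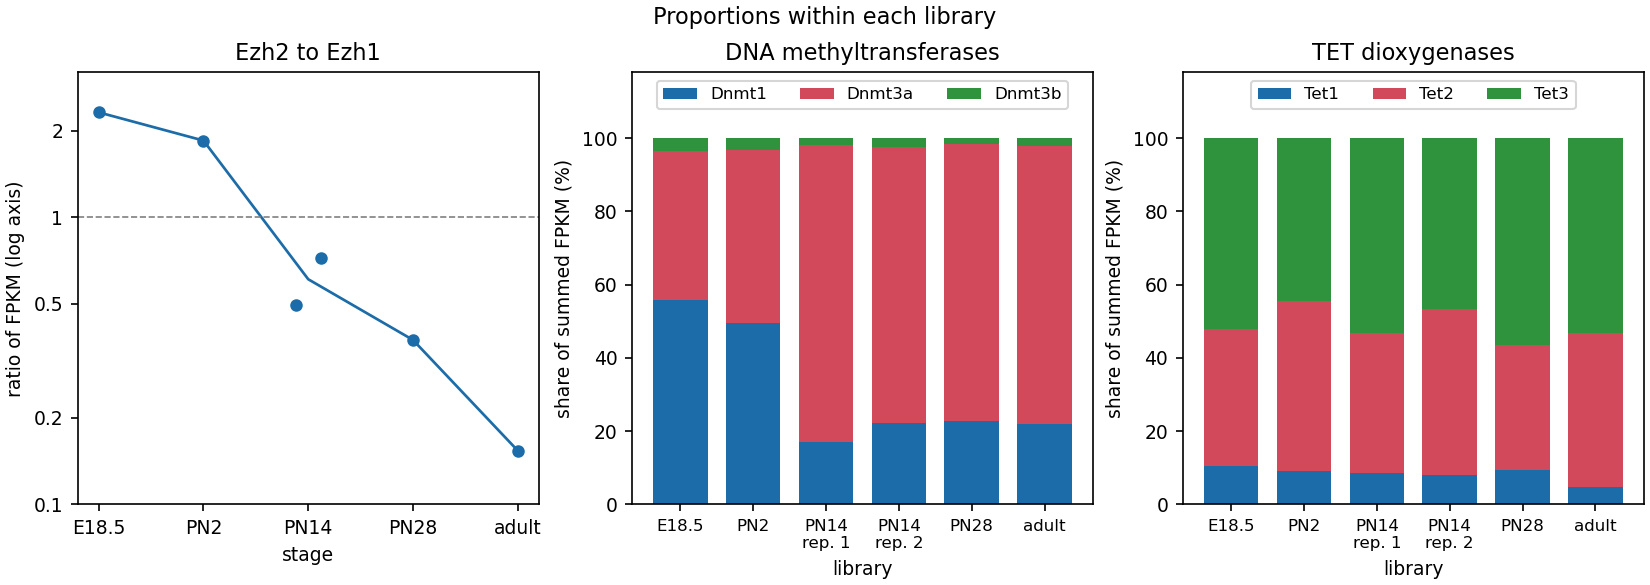
Left, ratio of Ezh2 to Ezh1 FPKM (log axis) by stage, with 1 point per library, the line passing through the mean of the replicates at PN14, and a dashed line at equal levels. Middle and right, shares (%) of the summed FPKM of the 3 DNA methyltransferases and of the 3 TET genes in each of the 6 libraries. The ratio goes from 2.32 at E18.5 to 0.154 in the adult, and Dnmt3a goes from 40.8% to 75.9% of the methyltransferase FPKM.

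Both catalytic subunits summed to 20.8 FPKM (E18.5), 20.4 (PN2), 10.2 and 11.9 (PN14 replicates 1 and 2), 10 (PN28) and 13.7 (adult). Ezh1 contributed 30.1% of the sum at E18.5 and 86.6% in the adult. The direction of the sum from E18.5 to adult depended on the scaling between libraries, which FPKM carries. In TMM CPM, not corrected for length, Ezh1 went from 17.9 at E18.5 to 69 in the adult and Ezh2 from 26 to 6.66. On that scale the rise of Ezh1 was larger than the fall of Ezh2. Suz12 (chromosome 11, 79806608 to 79847625) had 14.80 FPKM (E18.5), 14.67 (PN2), 5.77 and 7.26 (PN14 replicates 1 and 2), 5.64 (PN28) and 5.72 (adult). It was high in both perinatal libraries and level after PN14. Relative to other genes it changed little, with log2 fold changes of -0.52 from PN2 to PN14 (standard error 0.165, adjusted p = 0.0593) and -0.34 from E18.5 to adult (standard error 0.195, adjusted p = 0.181), and neither was called. With library size alone both were called, at -1.17 and -1.37. Per catalytic transcript, Suz12 went from 0.712 at E18.5 to 0.418 in the adult.

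The other PRC2 genes were taken from a list of 9 (Eed, Rbbp4, Rbbp7, Jarid2, Mtf2, Phf1, Phf19, Aebp2 and Epop), all of which were tested. Between E18.5 and adult 1 rose and 1 fell, against 21.4% rising and 23.6% falling over all genes tested. The median log2 fold change was 0.02, against -0.054 for all genes. Under scaling by library size 0 rose and 5 fell, when 1347 of all 16882 genes rose and 7700 fell. Phf19, an accessory subunit that binds methylated H3 lysine 36, fell from 4.83 FPKM at E18.5 to 0.20 in the adult (log2 fold change -3.55, standard error 0.36, adjusted p = 0.00149). Phf1, a paralog of Phf19, was called as rising at the limit of 2-fold (standard error 0.209, adjusted p = 0.00977), with 7.52 FPKM at E18.5 and 7.41 in the adult and a log2 fold change of -0.02 with library size alone. Eed, the core subunit that binds trimethylated H3 lysine 27, had 13.85 FPKM at E18.5 and 8.93 in the adult and was not called. Its log2 fold change was 0.39, and -0.63 with library size alone. The demethylases of the same mark, Kdm6a and Kdm6b, had 6.19 and 13.98 FPKM at E18.5 and 3.51 and 6.50 in the adult. Their log2 fold changes over that span were 0.21 and -0.08, and -0.82 and -1.10 with library size alone. Of the 2, 0 were called in any interval, while 1 fell between E18.5 and adult with library size alone.

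Of 13 partners and readers of DNA methylation, 12 were tested. Between E18.5 and adult 3 rose and 4 fell, against 21.4% rising and 23.6% falling over all genes tested. The median log2 fold change was 0.24, and with library size alone 1 rose and 5 fell (median -0.79). Of all 16882 genes, 1347 rose and 7700 fell under that scaling (median -1.08). Hells, a chromatin remodeler needed for DNA methylation, fell from 6.27 to 0.12 FPKM (log2 fold change -4.68, standard error 0.378, adjusted p = 0.00123). Zfp57, which protects methylation at imprinted loci, fell from 6.98 to 0.17 FPKM (log2 fold change -4.21, standard error 0.464, adjusted p = 0.00176). Zbtb38, a zinc finger protein that binds methylated DNA and had 2.78 FPKM at E18.5 and 7.81 in the adult, rose with a log2 fold change of 2.51 (adjusted p = 0.00177, standard error 0.278). Zbtb4, of the same family, had 6.13 and 7.64 FPKM and a log2 fold change of 1.34 (adjusted p = 0.00412, standard error 0.213), which was 0.32 with library size alone.

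Of 10 genes that act with the TET enzymes in demethylation, 2 rose and 2 fell between E18.5 and adult, and the median was 0.17. These counts were near the shares over all genes tested, 21.4% rising and 23.6% falling. With library size alone 1 rose and 4 fell (median -0.86), when 1347 of all 16882 genes rose and 7700 fell (median -1.08). The called genes were Gadd45g and Gadd45a, which encode stress-induced proteins linked to demethylation, with log2 fold changes of 2.21 and 1.10, and Cxxc4, which encodes a CXXC protein related to Tet2, and the glycosylase gene Mbd4, with -2.72 and -1.04 (adjusted p from 0.00369 for Cxxc4 to 0.0317 for Mbd4). The log2 fold change of Gadd45a was 0.07 when scaled by library size alone. Gadd45g differed between the PN14 replicates, at 25.62 and 15.15 FPKM. Tdg, the glycosylase that removes oxidised methylcytosine, had 5.97 FPKM at E18.5 and 1.84 in the adult and was not called.

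Genes of proliferating cells declined over the same stages. A list of 16 (among them Mki67, Top2a, Pcna and Mcm2 to Mcm7) summed to 469 FPKM (E18.5), 358 (PN2), 64.1 and 113 (PN14), 67.4 (PN28) and 26.2 (adult). From PN2 to PN14, 15 of the 16 fell and 0 rose, with a median log2 fold change of -1.56, against 11.2% falling over all genes tested. Uhrf1 (-1.98) lay below that median, and Dnmt1 (-1.31) and Ezh2 (-1.02) lay above it. From E18.5 to adult all 16 fell, with a median of -5.99, against 23.6% falling over all genes tested. With -6.93, Uhrf1 was within the range of the list, whose largest declines were those of Ccnb1 (-8.26) and Top2a (-7.48). Dnmt1 (-2.45) and Ezh2 (-1.97) were near 4 of the list's least changed genes, named after their values were seen, Pcna (-1.61), Mcm7 (-1.95), Mcm2 (-2.42) and Mcm4 (-2.48). The part of dividing cells in the members' changes was not tested.

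**Figure D4:**
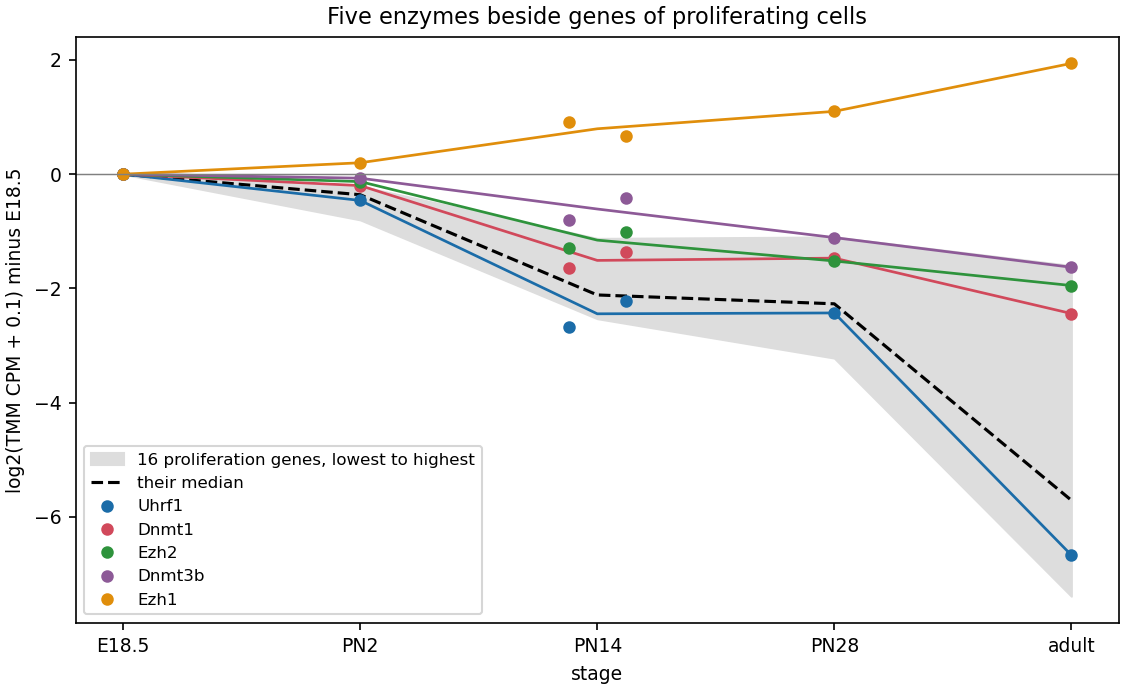
Level of 5 genes relative to E18.5, as the difference in log2(TMM CPM + 0.1), by stage, with 1 point per library and lines through the stages (mean of both libraries at PN14). The grey band runs from the lowest to the highest of the 16 proliferation genes and the dashed line is their median, at -5.71 in the adult, where Uhrf1 is at -6.67, Dnmt1 at -2.44 and Ezh1 at 1.94.

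Markers of other cells also moved with stage. For comparison, 23.6% of all genes tested fell and 21.4% rose between E18.5 and adult. With library size alone 7700 of the 16882 genes fell and 1347 rose over that span. The satellite cell markers (5 genes, Pax7 among them) summed to 74.4 FPKM at E18.5, 65.7 at PN2, between 11.6 and 23.4 at PN14 and PN28, and 8.12 in the adult, and all 5 fell between E18.5 and adult. The fibroblast list (6 genes) went from 6087 to 516 FPKM over the same span, with 5 called as falling. The erythroid list (4 genes) summed to 8423 FPKM at E18.5 and to between 370 and 2092 FPKM afterwards, and 4 of 4 fell. The macrophage and leukocyte list (4 genes) went from 27.8 to 8.57 FPKM, with 1 falling, and of the endothelial list (4 genes, 150 to 53.3 FPKM) 0 were called, although all 4 genes of each of these lists fell with library size alone. Schwann cell markers were higher in PN14 replicate 2 (851 FPKM in sum) than in replicate 1 (214 FPKM), and 2 of them rose between E18.5 and adult. The myofibre markers, which identify the tissue and of which 3 of 7 rose over that span, were at 17453 FPKM in sum at E18.5, 20156 at PN2 and between 58869 and 77470 FPKM in the later libraries. With library size alone all 7 of them rose between E18.5 and adult. The part of these cells in the members' changes was not tested.

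The PN14 replicates were not identical for the members. On the TMM scale replicate 2 was higher than replicate 1 by 1.37 times for Uhrf1, 1.34 times for Dnmt3b, 1.23 times for Ezh2, 1.21 times for Dnmt1 and 1.20 times for Tet2. It was lower for Ezh1 (0.84 times), Dnmt3a (0.853 times) and Tet3 (0.89 times). The summed FPKM of the proliferation list was also higher in replicate 2. The log2 fold change of Uhrf1 from PN2 to PN14 was -1.77 without replicate 1 and -2.23 without replicate 2, and that of Ezh2 was -0.88 and -1.18.

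The genes with the most similar courses were found by the root mean square difference of log2(TMM CPM + 0.1) over the 6 libraries, each gene centred on its own mean. Those nearest to Uhrf1 were Kntc1, Dtl and Melk (differences of 0.14, 0.157 and 0.165), which are genes of the cell cycle. Kntc1 had 4.46 FPKM at E18.5 and 0.01 in the adult. The nearest to Ezh2 were Pi4k2b, Piezo1 and Mmgt2 (0.0264, 0.0341 and 0.0441), and those nearest to Ezh1 were Ccdc101, Ubl3 and 2900097C17Rik (0.0344, 0.0489 and 0.0533). For Dnmt3b they were Rhoj, BC026585 and Tax1bp3 (0.0413, 0.0458 and 0.0566). These are similarities across 6 libraries that share the stages, and carry no test.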

How the data were processed

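Gastrocnemius RNA was measured in 6 libraries. The authors aligned paired-end reads to mm9 with TopHat2 (2.0.5) and used RSEM on RefSeq gene models. The deposited expected counts are unnormalized whole numbers, and the deposited FPKM values are scaled by the authors to gene length and library size alone. The RSEM version is not given in the sources used here.

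The expected counts were analysed in R 4.3.3 with edgeR 4.0.16 (TMM, filterByExpr, quasi-likelihood test, 5 stages in a single model, 1 residual degree of freedom, common biological coefficient of variation 0.188). DESeq2 1.42.0, edgeR's exact test, other scalings and other filters served as alternatives. The code was tested on simulated data. The test follows the authors' choice of edgeR. A count of 3 equals 0.019 to 0.0239 CPM. Positions are from GENCODE M1 (mm9), and promoter sequences from RefSeq (GRCm38.p6). Strand use in counting is not given in the sources used here; Dnmt3a, Dnmt3b, Ezh2 and Suz12 each overlap an opposite-strand gene. Epop was matched as E130012A19Rik. Tables were made with Python 3.11.15, pandas 2.3.3, numpy 2.4.6 and matplotlib 3.10.9.

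Changes of every member were given in each comparison. Some from E18.5 to PN2 were given as a range, and that of Uhrf1 from PN14 to PN28 in words. From each list, the rule named at most the 2 rising and the 2 falling called genes that changed most from E18.5 to adult, and Eed, Kdm6a, Kdm6b, Tdg and Dnmt3l (for their role) and Pcna, Mcm7, Mcm2 and Mcm4 (least changed) were added after their values were seen. The members and lists were chosen with earlier results of these data known.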

Additional observations from a re-analysis of the deposited data

How the results depend on the processing

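The count of members called from PN2 to PN14 was 3 and became 6 with library size alone, where Suz12 (-1.17), Tet1 (-1.22) and Tet2 (-1.21) were also called. Over all 16882 genes the count went from 3884 to 5825, and the falling genes from 1896 to 4971. From PN28 to adult the count of 2 became 1 when genes with a mean under 1 CPM were left out, which ended the call of Tet1. Calls over all genes in that interval went from 88 of 16882 to 13 of 13117. Of the other values, library size alone called Dnmt3a (-1.21) and Suz12 (-1.37) between E18.5 and adult and ended the call of Ezh1 (0.92). DESeq2's size factors, DESeq2's Wald test, edgeR's exact test and the absence of a filter left each of the 50 member calls as it was. Some adjusted p passed 0.05 in changes too small to be called, namely Dnmt3a from PN2 to PN14 (0.0327 with the Wald test and 0.0338 with the exact test), Dnmt1 from PN28 to adult (0.0266 with the exact test) and Tet1 from PN2 to PN14 (0.0442 without a filter). With either PN14 library left out no test could be made, and the log2 change of the Ezh2 to Ezh1 ratio from PN2 to PN14 was -1.35 or -1.90. From PN2 to adult, a comparison chosen after seeing the data, that ratio changed by -3.58. No paired analysis was possible because only PN14 has more than 1 library. The lowest count of any member was 49, for Uhrf1 in the adult.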

Other observations

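Polycomb repressive complex 1, which reads the mark placed by PRC2 and ubiquitinates histone H2A, had members that moved in both directions over the same stages. Of 19 PRC1 genes tested, 4 rose and 4 fell between E18.5 and adult. These counts were near the shares over all genes tested, 21.4% rising and 23.6% falling. The median log2 fold change was 0.01, while with library size alone 2 rose and 10 fell (median -1.02). That scaling called 7700 of all 16882 genes as falling and 1347 as rising (median -1.08), so these counts too follow the general shift. Among the chromobox subunits that bind the mark, Cbx7 had 0.23 FPKM (E18.5), 0.24 (PN2), 1.51 and 1.02 (PN14), 2.03 (PN28) and 5.47 (adult) (log2 fold change 5.58, standard error 0.524, adjusted p = 0.00133, edgeR's quasi-likelihood test). Cbx2 had 4.18, 2.83, 0.63 and 1.24, 0.58 and 0.26 FPKM in the same order (log2 fold change -3.00, standard error 0.443, adjusted p = 0.00327, same test). Cbx2 was the more abundant of the pair in both perinatal libraries and Cbx7 in PN14 replicate 1, at PN28 and in the adult, while in PN14 replicate 2 Cbx2 was slightly higher. Of the Pcgf subunits, which define the variants of the complex, Pcgf2 fell from 12.83 FPKM at E18.5 to 0.97 in the adult and Pcgf5 rose from 3.05 to 11.68 FPKM, with log2 fold changes of -2.69 and 2.96. All of these genes kept their direction with library size alone.

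Germline genes that DNA methylation is known to keep silent in somatic tissue (9 genes, 5 of them tested) were low throughout, and summed to between 0.30 and 0.87 FPKM. Tdrd1 fell from 408 counts at E18.5 and 328 at PN2 to between 1 and 11 counts in the later libraries. Dazl and Sycp3 rose between E18.5 and adult, from 16 counts each to 70 and 59. Slc25a31 went from 33 counts to 3 and Mael from 14 to 0, and neither was called. The median log2 fold change of the 5 tested genes was -2.26. Over all genes tested, 21.4% rose and 23.6% fell. All of these adult levels rest on few counts.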
